A study of Bubalus bubalis with 6 samples.

Results

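The calpain system was followed through 8 genes of cultured buffalo (Bubalus bubalis) muscle stem cells (MuSCs): the catalytic subunits CAPN1, CAPN2, CAPN3, CAPN5 and CAPN7, the calpain-like CAPN6, the regulatory subunit CAPNS1 and the inhibitor calpastatin, CAST. They are the rows of the deposited gene table that carry these symbols, 8 of 24616 genes listed. All 8 were among the 15576 genes tested. Polyadenylated RNA had been sequenced from 3 proliferation samples in growth medium (GM) and 3 differentiation samples in differentiation medium (DM), all primary MuSCs taken from fetal longissimus muscle. GM was high-glucose DMEM with fetal bovine serum, and DM was DMEM with a low level of horse serum, given to nearly confluent cells for several days. The labels do not say how many fetuses gave the cells, how long each sample stood in DM or whether each sample was a culture of its own, so p-values measure the spread between these samples, which may be technical. The comparison asks which calpain system genes differ in expression between proliferating and differentiating MuSCs.

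Calpains are calcium-dependent cysteine proteases of the cell interior that cut their substrates at a few places instead of degrading them. The conventional enzymes, calpain 1 and calpain 2, each pair a catalytic subunit, made from CAPN1 or CAPN2, with the small subunit made from CAPNS1, and both are held in check by calpastatin. In myoblasts conventional calpains take part in adhesion turnover, migration and fusion. In meat animals calpain 1 and calpastatin are best known for their part in the tenderizing of muscle after death. CAPN3 is the calpain of skeletal muscle, which binds titin in the sarcomere and is not inhibited by calpastatin.

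The 8 genes together held 0.154 to 0.157% of each GM library's gene counts and 0.164 to 0.166% of each DM library's, from totals between 35615864 and 40305237. Levels are CPM, each gene's counts scaled to 1e+06 counts of the library after TMM normalization, and errors are SDs over the 3 samples of a group. Fold changes are DM over GM. The summed level of 9 markers of differentiating muscle ranged from 443 to 895 CPM in GM samples and from 5970 to 8573 CPM in DM samples. All 9 were called higher in DM samples. Markers of proliferating myoblasts were detected in every sample. Their summed level was 3549 to 3730 CPM in GM samples and 2130 to 2750 CPM in DM samples, with 4 of 7 called lower. DES made up most of both sums and was not called, at 2274 ± 103 CPM in GM and 2051 ± 323 CPM in DM. MKI67 fell from 677 ± 19.3 to 133 ± 8.37 CPM, while MYOD1 went the other way, from 32.5 ± 3.10 to 60.5 ± 18.8 CPM, without a call. Genes of a fibroblast list were high in both groups. They summed to between 24688 and 24909 CPM in GM and between 76755 and 96660 CPM in DM. Of the 6 tested, 5 were called higher. Most of both sums was COL1A1, from 15288 ± 97.9 to 44329 ± 2747 CPM, and COL3A1, from 8299 ± 191 to 39253 ± 7036 CPM. PDGFRA was tested but not called, at 575 ± 16.5 CPM in GM and 859 ± 182 CPM in DM. TCF21 had 0, 1 and 7 counts in GM and 0 in every DM sample, too few to be tested. Lists for adipocytes, endothelium, immune cells, Schwann cells and erythroid cells each summed to at most 13.6 CPM in any sample, with PTPRC at no more than 2 counts and HBB at no more than 1. The epithelial list summed to between 30.7 and 37.5 CPM in GM and between 7.24 and 9.12 CPM in DM, with EPCAM at no more than 1 count. Most of this sum was CDH1, which was called lower, from 34.8 ± 3.58 to 7.75 ± 1.10 CPM. The keratins went the other way and were called higher, at few counts. KRT8 had 0, 1 and 0 counts in GM and 18, 22 and 21 in DM, and KRT18 had 0, 0 and 1 in GM and 9, 2 and 7 in DM. The smooth muscle list summed to between 1781 and 1835 CPM in GM and between 1017 and 1116 CPM in DM. Most of this sum was ACTG2, from 1419 ± 43.1 to 852 ± 53.2 CPM without a call. SMTN was called lower, from 318 ± 17.0 to 152 ± 4.90 CPM. CNN1 had 68.0 ± 0.377 and 65.8 ± 2.09 CPM, and MYH11 went the other way, from 3.32 ± 0.620 to 5.69 ± 0.916 CPM, both without a call. DM replicate 3 stood apart from the other DM samples, since its gene counts differed from theirs by a chi-square of 40.5 to 41.4 per degree of freedom, where the other pair of DM samples gave 11.7 and pairs of GM samples gave 6.22 to 10.6. In these bulk samples fewer cells of a type and less RNA per cell cannot be told apart.

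Of the 8 genes, 3 were called higher in DM samples and 0 were called lower by edgeR's quasi-likelihood test. A call needed a log2 fold change beyond 1 in either direction and a Benjamini-Hochberg adjusted p-value under 0.05. Over all tested genes 15.0% were called higher and 10.3% lower by this rule. The 3 genes were CAPN3, the muscle calpain, CAPN6, the calpain-like protein without a catalytic cysteine, and CAPN5, a calpain without the calcium-binding domain of the conventional enzymes. By the adjusted p-value alone 5 of the 8 were higher, against 31.6% of all tested genes, and 2 were lower, against 31.4%. The groups did not overlap for 7 of the 8 genes, beside 68.8% of all tested genes. The median log2 fold change was 0.56 over the 8 genes and 0.03 over all tested genes.

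**Figure D1:**
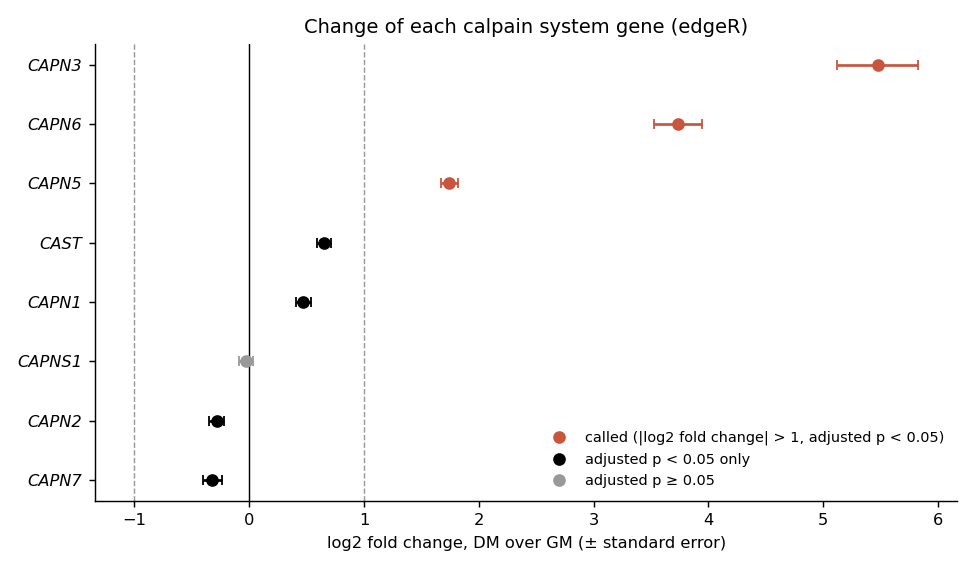
Log2 fold change of DM over GM for the 8 genes, with the standard error as bars, the call threshold as dashed lines and color showing which rule each gene passed. CAPN3 at 5.47, CAPN6 at 3.73 and CAPN5 at 1.74 lie beyond the threshold, while the other 5 genes lie between -0.32 and 0.65.

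The catalytic subunits of the conventional calpains went in opposite directions, each by a small amount. CAPN1 (ENSBTAG00000010230, chromosome 29, 44064429 to 44089990, plus strand; the tables name no genome build for this or any other position) stood at 153, 152 and 160 CPM in the GM samples and at 217, 202 and 226 CPM in the DM samples. Every DM sample was above every GM sample. The means were 155 ± 4.17 and 215 ± 11.9 CPM, a 1.39-fold rise (log2 fold change 0.47, SE 0.063, edgeR adjusted p = 6.96e-05). This gene passed the adjusted p-value but not the minimum fold change.

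CAPN2 (ENSBTAG00000012778, chromosome 16, 27781671 to 27840009, plus strand) encodes the catalytic subunit of calpain 2, the form that needs more calcium in the test tube. It stood at 576, 597 and 579 CPM in GM samples and at 505, 492 and 444 CPM in DM samples. All 3 DM samples were below all 3 GM samples, with the lowest level in DM replicate 3. From 584 ± 11.2 CPM in GM samples it fell to 480 ± 32.3 CPM in DM samples (log2 fold change -0.28, SE 0.065, edgeR adjusted p = 0.00317), again short of the minimum fold change.

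The small subunit shared by both enzymes did not separate the groups. CAPNS1 (ENSBTAG00000014872, chromosome 18, 46987527 to 46994449, plus strand) had 489, 485 and 495 CPM in GM samples and 497, 444 and 501 CPM in DM samples. DM replicate 2 was the lowest of all 6 samples, and the other DM replicates lay above every GM sample. The means were 489 ± 5.06 and 480 ± 31.7 CPM (log2 fold change -0.03, SE 0.064, edgeR adjusted p = 0.738). Without DM replicate 2 the log2 fold change was 0.04, so its sign rested on that library. The spread was wider in DM samples, with a coefficient of variation of 6.59% against 1.03% in GM samples.

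Calpastatin rose. CAST (ENSBTAG00000000874, chromosome 7, 98444979 to 98581253, plus strand), whose product binds and blocks calpain 1 and calpain 2, had 211, 192 and 208 CPM in GM samples. In DM samples it had 321, 326 and 312 CPM, all above every GM sample. The rise from 204 ± 9.90 to 320 ± 6.98 CPM was 1.57-fold (log2 fold change 0.65, SE 0.060, edgeR adjusted p = 4.42e-06). Its coefficient of variation in DM samples, 2.18%, was the smallest of the 8 genes in that group, and like CAPN1 it did not reach the minimum fold change.

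**Figure D2:**
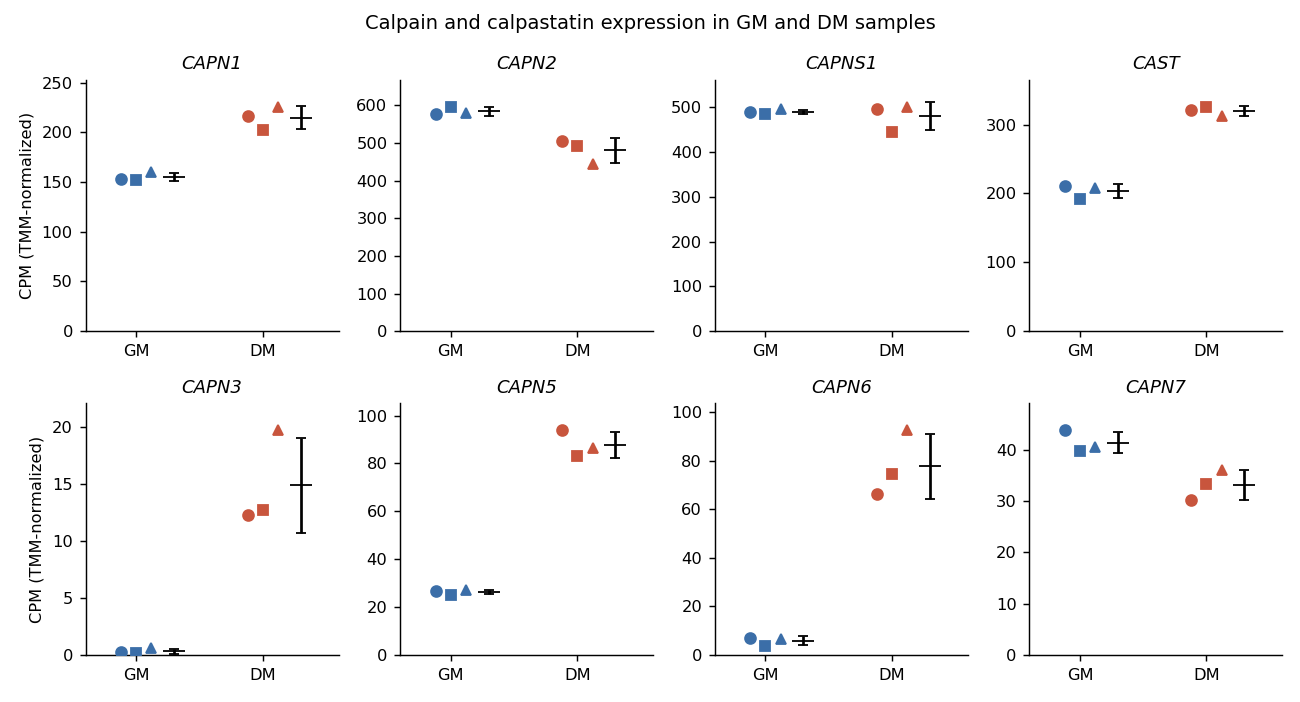
CPM of each gene in every sample, with circles for replicate 1, squares for replicate 2, triangles for replicate 3, and a black line and bars for mean ± SD (n = 3). GM and DM samples are separated for every gene but CAPNS1, where DM replicate 2 at 444 CPM is below the GM samples and the other DM samples are above them.

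CAPN3 changed most. CAPN3 (ENSBTAG00000008868, chromosome 10, 37828797 to 37885860, plus strand) had 12, 6 and 22 counts in GM samples, against 414, 466 and 730 counts in DM samples. As CPM these were 0.289, 0.144 and 0.580 in GM samples and 12.3, 12.7 and 19.7 in DM samples. GM samples held few counts, and DM replicate 3 stood above the other DM samples. The mean went from 0.338 ± 0.222 to 14.9 ± 4.18 CPM, 44.1-fold (log2 fold change 5.47, SE 0.35, edgeR adjusted p = 3.09e-07). It ranked 134 among the 15576 tested genes by log2 fold change. Because the GM level rests on so few counts, the size was less certain than the direction: the log2 fold change was 6.08 without GM replicate 3 and 5.10 without GM replicate 2.

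The order of samples for CAPN3 was also that of the markers of differentiating muscle. That list summed to 860, 443 and 895 CPM in GM replicates 1, 2 and 3 and to 5970, 6133 and 8573 CPM in DM replicates 1, 2 and 3. GM replicate 2 was lowest and DM replicate 3 highest on both measures. The summed level of these markers moved with CAPN3, and its part in the difference was not tested.

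CAPN6 (ENSBTAG00000000828, chromosome X, 64684214 to 64708869, minus strand) encodes a protein with the layout of a calpain that lacks the catalytic cysteine and is known to bind microtubules. It stood at 7.16, 3.70 and 6.67 CPM in GM samples and at 66.1, 74.4 and 92.5 CPM in DM samples. GM replicate 2 was the lowest and DM replicate 3 the highest of the 6 samples, as for CAPN3. The mean rose 13.3-fold, from 5.85 ± 1.87 to 77.7 ± 13.5 CPM (log2 fold change 3.73, SE 0.21, edgeR adjusted p = 1.28e-07). The fibroblast list had less in DM replicate 3 (76755 CPM) than in DM replicates 1 and 2 (96660 and 88964 CPM). Among GM samples it hardly differed, at 24906, 24688 and 24909 CPM in replicates 1, 2 and 3, while CAPN6 was clearly lowest in replicate 2. The markers of differentiating muscle summed to 860, 443 and 895 CPM in GM replicates 1, 2 and 3. In DM replicates 1, 2 and 3 they summed to 5970, 6133 and 8573 CPM. GM replicate 2 was thus lowest and DM replicate 3 highest for these markers, as for CAPN6. The part of either list in the CAPN6 difference was not tested.

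CAPN5 (ENSBTAG00000005034, chromosome 15, 57256223 to 57313832, plus strand) is a calpain of many tissues. It had 26.6, 25.1 and 27.0 CPM in GM samples and 93.8, 83.0 and 86.3 CPM in DM samples. The samples of each group lay close together, and the lowest DM sample was well above the highest GM sample. The rise from 26.2 ± 0.988 to 87.7 ± 5.52 CPM was 3.34-fold (log2 fold change 1.74, SE 0.073, edgeR adjusted p = 1.88e-08). DM replicate 3 was not the highest DM sample here, unlike for CAPN3 and CAPN6, and the coefficient of variation was 6.30% in DM samples, against 28.1% for CAPN3 and 17.4% for CAPN6.

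CAPN7 (ENSBTAG00000006479, chromosome 1, 153971502 to 154021605, plus strand) encodes a calpain that binds proteins of the ESCRT membrane-sorting machinery. It had 43.8, 39.9 and 40.7 CPM in GM samples and 30.2, 33.3 and 36.1 CPM in DM samples. No DM sample reached the lowest GM sample. The mean fell from 41.5 ± 2.10 to 33.2 ± 2.93 CPM (log2 fold change -0.32, SE 0.082, edgeR adjusted p = 0.00599), below the minimum fold change.

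Levels of different genes were compared per length, as CPM divided by the deposited gene length in kilobases. On this scale CAPNS1 was highest in both groups, at 372 ± 3.85 CPM per kilobase in GM samples and 366 ± 24.1 in DM samples. CAPN2 came next with 184 ± 3.52 and 151 ± 10.2 CPM per kilobase, followed by CAPN1 with 68.7 ± 1.85 and 95.3 ± 5.27 and CAST with 42.1 ± 2.05 and 66.2 ± 1.45. These 4 genes of the conventional system kept their order in GM and DM samples and lay above the other 4 genes in every sample. Below them the order of the GM samples was CAPN7 (15.7 ± 0.799 CPM per kilobase), CAPN5 (5.85 ± 0.220), CAPN6 (2.32 ± 0.742) and CAPN3 (0.0931 ± 0.0612). In DM samples CAPN6 (30.8 ± 5.35 CPM per kilobase) was above CAPN5 (19.5 ± 1.23), which was above CAPN7 (12.6 ± 1.11), with CAPN3 (4.11 ± 1.15) still last. Each gene was above the next in that order in all 3 samples of the group, so no pair of neighbours overlapped.

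**Figure D3:**
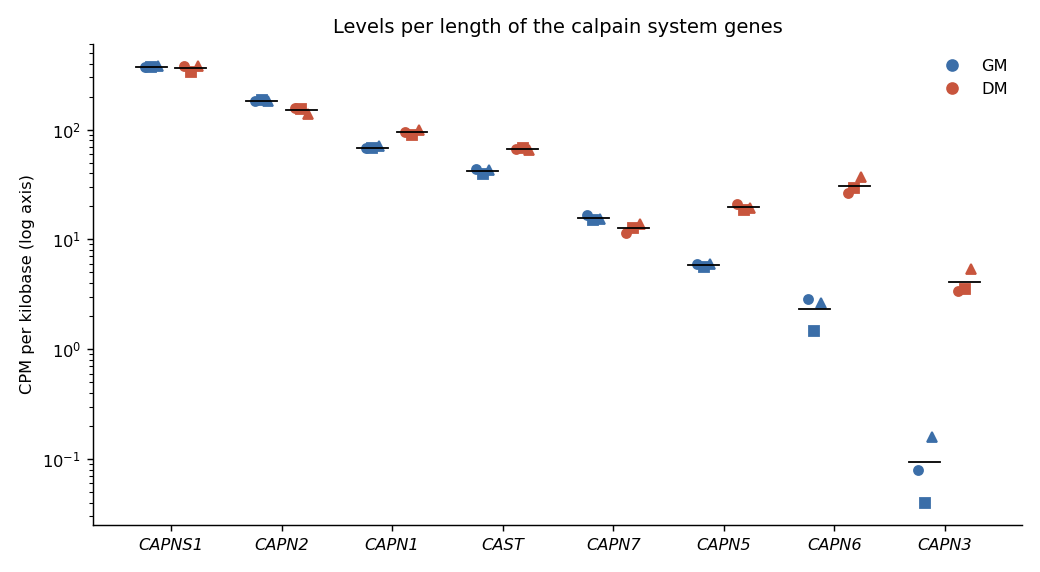
CPM per kilobase of gene length on a log axis, for GM samples (blue) and DM samples (red), with 1 symbol per sample and a line at each mean. CAPNS1, CAPN2, CAPN1 and CAST keep their order, while CAPN7 goes from above CAPN5 and CAPN6 in GM samples, at 15.7, to below both in DM samples, at 12.6.

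Against the level per length of all tested genes, CAPNS1 stood at the percentile 98.6 in both groups and CAPN2 at 96.9 in GM samples and 96.6 in DM samples. CAPN3 moved from the percentile 9.05 to 37.5, and CAPN6 from 32.2 to 81.3. The called rise of CAPN3 thus left it below the median gene of the DM samples, while CAPN6 passed from the lower to the upper part of the range. CAPN5 moved from the percentile 45.1 to 72.1.

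The summed level per length of the 7 subunit genes, CAST left out, was 649 ± 4.17 CPM per kilobase in GM samples and 679 ± 28.2 in DM samples. CAPNS1 made up 57.4 ± 0.286% of this sum in GM samples and 53.8 ± 1.35% in DM samples. The share of CAPN2 ranged from 27.9 to 29.0% in GM samples and from 20.1 to 23.9% in DM samples, and that of CAPN1 was 10.5, 10.4 and 10.8% in GM samples and 13.8, 13.9 and 14.4% in DM samples. CAPN6 went from 0.357 ± 0.114% to 4.53 ± 0.749%, CAPN5 from 0.901 ± 0.0301% to 2.88 ± 0.123% and CAPN7 from 2.43 ± 0.128% to 1.86 ± 0.180%. CAPN3 held 0.0143 ± 0.00931% in GM samples and 0.603 ± 0.157% in DM samples. Despite their calls, CAPN3, CAPN5 and CAPN6 were a small part of this sum in every DM sample, and the conventional subunits the main part.

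Ratios within a sample, formed from levels per length, do not depend on the normalization between samples, and 4 were compared with exact two-sided permutation tests, adjusted over the 4. The smallest p-value that 3 against 3 samples allow is 0.1. The ratio of the inhibitor CAST to the summed catalytic subunits CAPN1 and CAPN2 was 0.175, 0.156 and 0.170 in GM samples and 0.261, 0.276 and 0.270 in DM samples. Each DM ratio exceeded each GM ratio, and the means were 0.167 ± 0.00987 and 0.269 ± 0.00770 (log2 difference 0.69, SE 0.055, exact p = 0.1, adjusted p = 0.133).

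The ratio of CAPN1 to CAPN2 was 0.375, 0.359 and 0.389 in GM samples and 0.604, 0.579 and 0.717 in DM samples. CAPN2 was the more abundant of the pair in all 6 samples, by a smaller margin in each DM sample (log2 difference 0.75, SE 0.10, exact p = 0.1, adjusted p = 0.133). The ratio of CAPNS1 to the summed CAPN1 and CAPN2 was 1.49, 1.45 and 1.49 in GM samples and 1.48, 1.38 and 1.59 in DM samples. These overlapped, with means of 1.48 ± 0.0266 and 1.48 ± 0.104 (exact p = 1). CAPN3 over the same sum had a mean of 0.000369 in GM samples and 0.0168 in DM samples, without overlap (log2 difference 5.69, SE 0.63, exact p = 0.1, adjusted p = 0.133). No ratio could pass the threshold of 0.05 in this design, and the 3 that did not overlap reached the smallest possible p-value before adjustment.

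**Figure D4:**
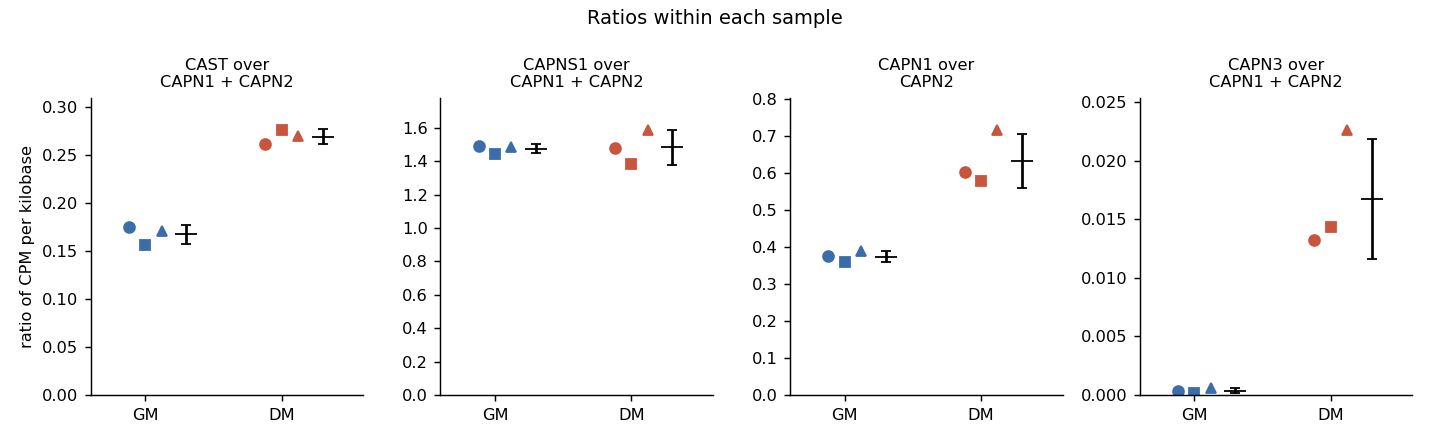
Ratios of CPM per kilobase within each sample, on linear axes from 0, with 1 symbol per replicate and mean ± SD in black (n = 3). The ratio of CAST to CAPN1 plus CAPN2 lies between 0.156 and 0.175 in GM and between 0.261 and 0.276 in DM, while that of CAPNS1 to the same sum overlaps between groups.

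The mRNA table listed 12 transcripts of the 8 genes, 1 for each of 6 genes, 2 for CAPN3 and 4 for CAST. Of these, 4 were called higher and 0 lower, where 15.5% of the 16352 tested transcripts were called higher and 10.1% lower. The called transcripts were those of CAPN5 and CAPN6 and both of CAPN3. Reads are counted on every transcript that they touch, so transcripts of 1 gene share counts and are not independent measurements.

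For CAPN3 the longer transcript, ENSBTAT00000011677 with 3381 bases, held all counts of the gene in all 6 samples (log2 fold change 5.46, SE 0.35). The shorter one, ENSBTAT00000011680 with 2763 bases, held 12, 6 and 12 counts in GM samples and 305, 316 and 499 counts in DM samples (log2 fold change 5.35, SE 0.30). In DM samples that was 73.7, 67.8 and 68.4% of the gene's counts. The counts outside the shorter transcript were 0, 0 and 10 in GM samples and 109, 150 and 231 in DM samples. Reads of the part that the longer transcript alone covers were thus seen in every DM sample and in GM replicate 3 only. GM replicates 1 and 2 held only 12 and 6 counts of the gene, too few for their 0 to show which transcript was used.

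The 4 CAST transcripts, which differ in length from 1548 to 4550 bases, held almost the same part of the gene's counts in both groups. For the longest, ENSBTAT00000011029, the share was 94.7 ± 0.0754% in GM samples and 95.3 ± 0.697% in DM samples. For the shortest, ENSBTAT00000065978, it was 48.4 ± 0.280% and 47.5 ± 1.10%. Their log2 fold changes lay between 0.60 and 0.64, so no CAST transcript stood apart from the gene.

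Of the other family members, CAPN10 and CAPN15 alone had more than 9 counts in any sample. Of 9 further calpain symbols, 7 were listed and 6 tested. Of these 2 were called higher, beside 15.0% of all tested genes, and 1 lower, beside 10.3%. CAPN10, a calpain of many tissues, had 22.5 ± 2.02 CPM in GM samples and 29.7 ± 4.18 in DM samples (log2 fold change 0.40, SE 0.11, edgeR adjusted p = 0.00939). CAPN15 had 45.2 ± 3.45 and 24.3 ± 1.70 CPM (log2 fold change -0.89, SE 0.084, edgeR adjusted p = 4.98e-06), a fall just short of the minimum fold change. The called genes stood at the limit of detection. CAPN8 had 0 counts in all GM samples and 1, 2 and 8 in DM samples, CAPN11 had 0 in all GM samples and 7, 4 and 4 in DM samples, and CAPN13 had 9, 3 and 5 in GM samples and 0, 0 and 1 in DM samples. CAPN8 and CAPN11 met the minimum total of 10 counts for testing through DM samples alone, and CAPN13 met it through GM samples alone. CAPN12 had 4 to 8 counts in every sample and was not called, and CAPN14 had 0 in all 6.

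Genes for partners and substrates of calpain 3 were described by their counts and medians. Of 11 in the list, 10 were listed and tested, and TTN, for titin, was not listed under that symbol. Of the 10, 6 were called higher, beside 15.0% of all tested genes, and 1 lower, beside 10.3%. By the adjusted p-value alone 7 were higher, beside 31.6% of all tested genes, and 3 lower, beside 31.4%. Their median log2 fold change was 2.12, beside 0.03 over all tested genes. The largest rise was that of MYOT, the Z-disc protein myotilin, from 2.73 ± 1.26 to 56.9 ± 11.9 CPM (log2 fold change 4.38, SE 0.28, edgeR adjusted p = 3.19e-07). CASQ1, the calcium store protein calsequestrin of fast muscle, rose from 1.77 ± 0.0686 to 28.1 ± 1.33 CPM (log2 fold change 3.99, SE 0.11, edgeR adjusted p = 1.55e-09). LDB3, another Z-disc protein, rose from 1.53 ± 0.704 to 23.7 ± 8.31 CPM (log2 fold change 3.95, SE 0.34, edgeR adjusted p = 2.33e-06). These are structural and calcium-handling genes of muscle. The 1 gene called lower, FLNC, encodes filamin C and was named after its value was seen: it fell from 1692 ± 51.6 to 572 ± 58.8 CPM (log2 fold change -1.56, SE 0.079, edgeR adjusted p = 5.91e-08).

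Substrates of the conventional calpains in adhesion and the cytoskeleton were described in the same way. Of 22 genes in that list 20 were tested, 0 were called higher and 3 lower, and their median log2 fold change was -0.21. Over all tested genes 15.0% were called higher and 10.3% lower, so the called share of this list was near the background in the lower direction. By the adjusted p-value alone 5 were higher, beside 31.6% of all tested genes, 11 were lower, beside 31.4%, and 4 did not pass. The called genes were CDH2, N-cadherin, from 59.4 ± 2.12 to 21.7 ± 0.975 CPM (log2 fold change -1.45, SE 0.071, edgeR adjusted p = 4.70e-08), PXN, the focal adhesion adaptor paxillin, from 94.4 ± 6.06 to 40.1 ± 3.90 CPM (log2 fold change -1.23, SE 0.085, edgeR adjusted p = 4.87e-07), and TLN2, talin 2, from 47.7 ± 3.71 to 21.7 ± 1.18 CPM (log2 fold change -1.13, SE 0.082, edgeR adjusted p = 7.20e-07). RNA levels of substrates say nothing of their cleavage, which was not measured.

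**Figure D5:**
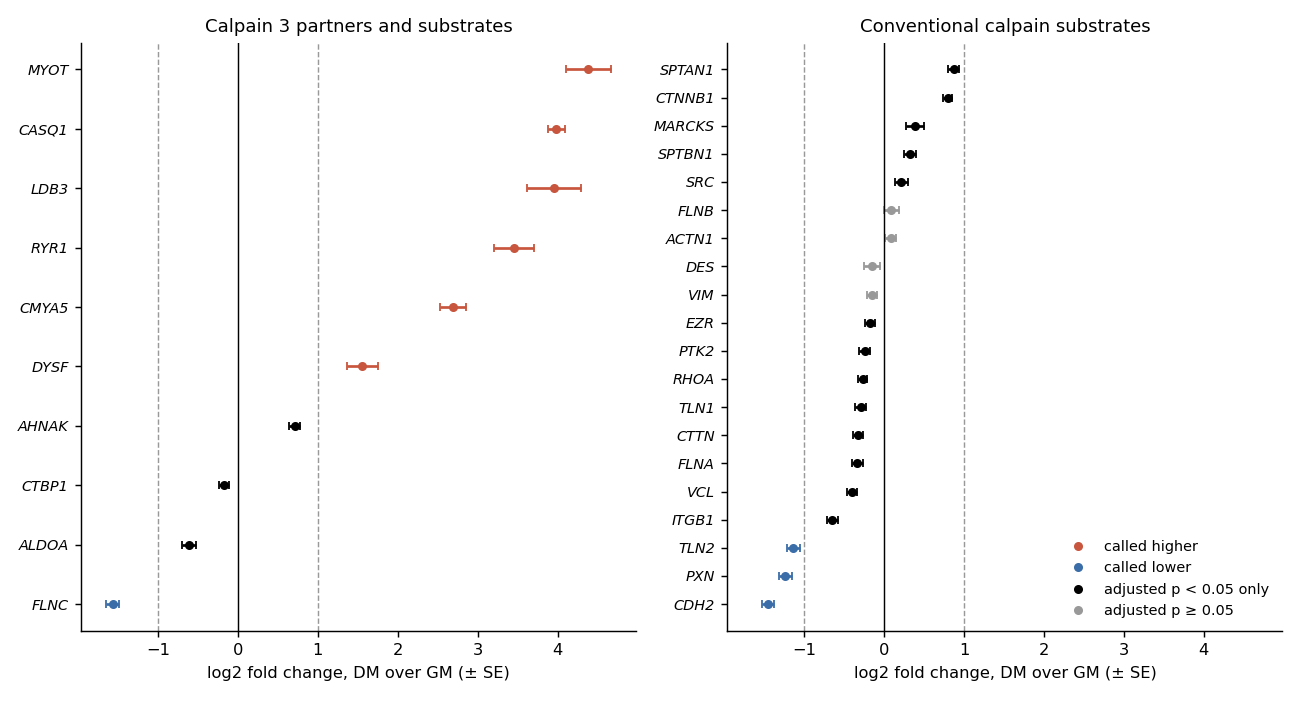
Log2 fold change of DM over GM, with standard errors as bars, for tested partners and substrates of calpain 3 (left) and of the conventional calpains (right), with the call threshold as dashed lines. On the left 6 of 10 genes are called higher and FLNC is called lower, while on the right 3 of 20 are called lower and 0 higher.

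The genes whose pattern over the 6 samples was most like that of a member were found by the root mean square difference of centred log2 CPM, among the 8053 genes that averaged 10 CPM or more. CAPN2 was nearest to ARFIP2, with a difference of 0.0189, and ACTR1B, with 0.0263. For CAST the nearest genes were RABEP1 (0.0235) and SIAH1 (0.0269), for CAPN1 OSBPL10 (0.0247) and LRIG1 (0.0271), and for CAPN7 SMC6 (0.0312) and UPF2 (0.0328). CAPN5 was nearest to RNF185 (0.0493) and LOXL2 (0.0570). For CAPN6 the nearest were OXT (0.118) and MYH6 (0.122), with log2 fold changes of 3.63 and 3.64. For CAPN3 they were CASQ2 (0.295), the calsequestrin of slow and cardiac muscle, and ASB5 (0.314), with log2 fold changes of 5.08 and 5.24. These differences are on the log2 scale over 6 samples and say mainly that the size of the change between groups was alike.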

How the data were processed

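The authors deposited raw read counts per gene and per mRNA transcript, without normalization, beside RPKM values they computed from these counts and the deposited gene length, and lists of their own fold changes and p-values, which were not used. Their methods name HISAT2 and the buffalo genome, while the tables list cattle Ensembl identifiers and no build. The submitters' processing notes name Bowtie 0.12.2 and the mouse builds mm8 and mm9, with no role given, so the source of the coordinates and the aligner behind these counts are not settled. Differences between DM and GM were tested on counts in edgeR 4.0.16 under R 4.3.3 (glmQLFit, glmQLFTest, TMM, Benjamini-Hochberg over all tested features), keeping features with a total of 10 counts or more. All 6 samples entered without a block. Ratios were compared with exact permutation tests (scipy 1.17.1). Likeness used log2 CPM with a prior count of 2. Tables were handled with Python 3.11.15, pandas 2.3.3 and numpy 2.4.6. Alternatives included DESeq2 1.42.0, other normalizations and filters, the deposited RPKM values as a filter, a replicate block and each sample left out. The pipeline was tested on simulated counts with large changes planted in a small part of the genes. Changes as small as those of CAPN1, CAPN2, CAPN7 and CAST, or in most genes at once, were not simulated.

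The 8 genes, the other gene lists and the rule for named genes were chosen with earlier results of these data known. All 8 genes were named, then called genes with the largest change in each substrate list and the nearest genes by pattern, of which those of CAPNS1 are not reported here. A search of promoters for motifs was not run, since no sequences were used here.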

Additional observations from a re-analysis of the deposited data

How the results depend on the processing

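Of 255 tested log2 fold changes of the 8 genes and their transcripts recomputed under the alternatives, 247 kept their direction and side of the threshold. CAPN3, CAPN5 and CAPN6 remained called higher under every alternative that tested them. Log2 fold changes ranged from 5.10 to 6.08 for CAPN3, 3.49 to 3.91 for CAPN6, 1.64 to 1.80 for CAPN5, 0.55 to 0.71 for CAST, 0.37 to 0.53 for CAPN1, -0.38 to -0.22 for CAPN2 and -0.42 to -0.25 for CAPN7. Under the authors' RPKM rule (at least 1 in more than 50% of samples) CAPN3 was not tested, and 1232 genes were called higher and 965 lower. A test against a fold change of 2 called 1398 genes higher and 895 lower, and CAST, CAPN1, CAPN2 and CAPN7 lost their adjusted p-value there by construction. With no minimum fold change 5 of the 8 genes were higher and 2 lower, among 4920 and 4893 of all genes.

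CAPNS1 had no stable sign: its log2 fold change was 0.030 under the RPKM rule (edgeR adjusted p = 0.688), from -0.049 to 0.043 with each sample left out (the latter without DM replicate 2) and -0.13 with library size alone (adjusted p = 0.0914). Its transcript gave -0.070 to 0.021 with each sample left out and -0.20 with library size alone (adjusted p = 0.0134). The log2 ratio of CAPNS1 to CAPN1 plus CAPN2 ranged from -0.045 to 0.056 with each sample left out, and was -0.0092 without GM replicate 2. The cause was not tested.

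Over all tested genes the median was 0.03 with TMM and -0.07 with library size alone. The samples share only replicate numbers, and same-numbered samples did not deviate together (r between -0.0218 and -0.00756 over genes). With the replicate block 3 of the 8 genes were called higher and 0 lower, CAPN3 at a log2 fold change of 5.50, and 2274 and 1563 of all genes. The exact sign-flip p-value of the replicate block was 0.25, the smallest possible, for the 3 ratios that did not overlap. Promoter motifs were not run. Depth limited CAPN3 in GM samples (6 to 22 counts) and CAPN8, CAPN11 and CAPN13 (at most 9 counts).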

Other observations

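The listed genes next to the 8 genes on the chromosome were described by a rule written after the data were seen, 16 neighbours of which 12 were tested. Of these 6 were called higher, beside 15.0% of all tested genes, and 1 lower, beside 10.3%. Beside CAPN3, ZNF106 lay 4325 bases away on the opposite strand and rose from 91.4 ± 12.5 to 420.3 ± 70.5 CPM (n = 3 per group, log2 fold change 2.20, edgeR adjusted p = 1.76e-07). GANC, 11084 bases away on the other side, had 5, 0 and 6 counts in GM samples and 54, 74 and 71 in DM samples. Both neighbours of the muscle calpain were thus called higher with it. Beside CAPN6, DCX, a microtubule-binding protein of neurons, had 4, 1 and 3 counts in GM samples and 73, 92 and 177 in DM samples, highest in DM replicate 3 like CAPN6 itself, while PAK3 on the other side gave a log2 fold change of 0.13 and did not pass (edgeR adjusted p = 0.608).

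ERAP1, which trims peptides for antigen presentation, lay 1637 bases from CAST on the opposite strand. It went from 3.29 ± 0.234 to 24.3 ± 10.4 CPM (log2 fold change 2.88, edgeR adjusted p = 3.78e-06), with 645, 640 and 1339 counts in DM samples. DM replicate 3 was the highest for ERAP1 and the lowest of the DM samples for CAST. COX7A1, a muscle subunit of cytochrome c oxidase, lay 542 bases from CAPNS1 and rose from 2.04 ± 0.179 to 7.30 ± 0.276 CPM (log2 fold change 1.84, edgeR adjusted p = 2.47e-06), beside no detected change of CAPNS1. TP53BP2, 1991 bases from CAPN2, had a log2 fold change of -0.26 (edgeR adjusted p = 0.0114). On the other side CAPN8 had 0 counts in GM samples and 1, 2 and 8 in DM samples and was called higher. CAPN8 and DCX, both among the 6 neighbours called higher, met the minimum total of 10 counts through DM samples alone. The 1 neighbour called lower was PCSK1, a hormone-processing protease 245493 bases from CAST, with 97, 98 and 100 counts in GM samples and 31, 27 and 2 in DM samples (log2 fold change -2.11, edgeR adjusted p = 0.00698), opposite in direction to CAST. The sources used here do not say that counting used strand, so reads past the end of a gene and reads of its close neighbour cannot be told apart by strand.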
